A study of Equus caballus with 18 samples.

Results

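The proteasome genes described here are the 47 of 16661 named genes on an equine array whose symbol starts with PSMA, PSMB, PSMC, PSMD, PSME, PSMF or PSMG. Each was represented by 1 probe set, the one with the highest mean over all arrays among those that carry a single symbol. They were sorted by role into 7 genes of the alpha ring, 6 of the beta ring, 8 of the base, 8 of the lid, 5 of the immunoproteasome, 2 other regulators of the core, 7 assembly chaperones, 2 core subunits known from single tissues and 2 genes that share only the prefix. PSMB2, PSMD4 and PSME3 lay only on probe sets with several symbols and are therefore not among the 47.

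RNA came from synovial fluid, which lubricates joints, of 6 horses whose right antebrachiocarpal joint received a dose of 8 mg of the synthetic corticosteroid isoflupredone acetate. The study used 12 adult Thoroughbreds in exercise, 4 to 8 years old and free of joint drugs for at least 12 months. The samples were taken before the injection (baseline, 6 arrays), 24 h after it (6 arrays) and on day 7 (5 arrays). For horses 1 and 2 the deposited day 7 columns agreed exactly at 99.3% of probe sets, against 2.05% for the next closest pair of columns, and were averaged and counted as 1 array of both horses. Joints injected with saline were not analysed here, so a change is one with time after drug, injection and repeated sampling together, and by day 7 also after a return to exercise.

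The proteasome is the protease of the cytosol and nucleus that degrades proteins tagged with ubiquitin. Its core is a barrel of alpha and beta rings, with the active sites on beta subunits, and its cap consists of a base of ATPases that unfold the substrate and a lid that removes the ubiquitin. In immune cells and under interferon the catalytic subunits PSMB5, PSMB6 and PSMB7 are exchanged for PSMB8, PSMB9 and PSMB10, and the activator made of PSME1 and PSME2 can bind the core, a form known for making peptides for MHC class I.

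Values are given as log2 expression, with a precision limited by the number of arrays. No detection call was available. Expression levels were compared only within a probe set, and the mean value of a probe set was used only to sort probe sets by brightness. Genes were called where the paired fit of limma, with the horse as a block, gave an adjusted p under 0.05 over all 30559 probe sets. The spread of values within an array was not alike at the 3 times: the SD over probe sets was 1.22 to 1.50 on baseline arrays, 1.40 to 1.72 on 24 h arrays and 1.53 to 1.82 on day 7 arrays. Markers of cell types moved too. Of 14 measured monocyte and macrophage markers 8 were called higher and 0 lower on day 7, with a median change of 1.81 and a mean level of 6.49 to 8.07 on day 7 arrays against 5.11 to 6.29 at baseline. CD163, MERTK, MSR1 and CD68 led them. T cell markers had 4 of 14 called lower, NK or cytotoxic markers 2 of 10, B cell markers 2 of 5, neutrophil markers 1 of 9 and chondrocyte markers 1 of 8. Dendritic cell markers had 3 of 6 called higher, and of 11 synovial fibroblast and 4 red blood cell markers 0 were called. Of all probe sets 11.9% were called higher and 15.4% lower on day 7. The counts for NK or cytotoxic, neutrophil and chondrocyte markers are near the second share, so the counts alone show no fall of their own. The mean level of the NK or cytotoxic markers was 3.69 to 4.38 on day 7 arrays against 4.59 to 5.33 at baseline. Their median change was -0.72, against -0.24 over all probe sets. Neutrophil and chondrocyte markers had median changes of -0.37 and -0.41, and their levels overlapped between day 7 and baseline.

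On day 7 the genes of the constitutive proteasome were higher than at baseline in every part of the particle, a direction that most lost when the SD of each array was a covariate. Of the 47 genes 26 were called higher and 0 lower, where 11.9% of all probe sets were called higher and 15.4% lower. The calls took in all 7 alpha ring genes, 4 of 6 beta ring genes, 5 of 8 base genes and 6 of 8 lid genes, with PSME1, PSME4, PSMF1 and the chaperone PSMD9. The 26 changes ran from 0.93 for PSMC2 to 2.52 for PSMA1, or 1.91-fold to 5.74-fold, with adjusted p between 0.00595 and 0.0431. The change was upward in each of the 5 horse comparisons for 23 of the 26, and in 4 of 5 for PSMB7, PSMD11 and PSMD13. The calls rest on changes within these same horses, so this agreement is no separate support. In these bulk samples a shift between cell types and a change of RNA per cell cannot be told apart. The macrophage markers and the array spread given above were also higher on day 7 than at baseline. Their part in the rise of the proteasome genes was not tested.

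**Figure D1:**
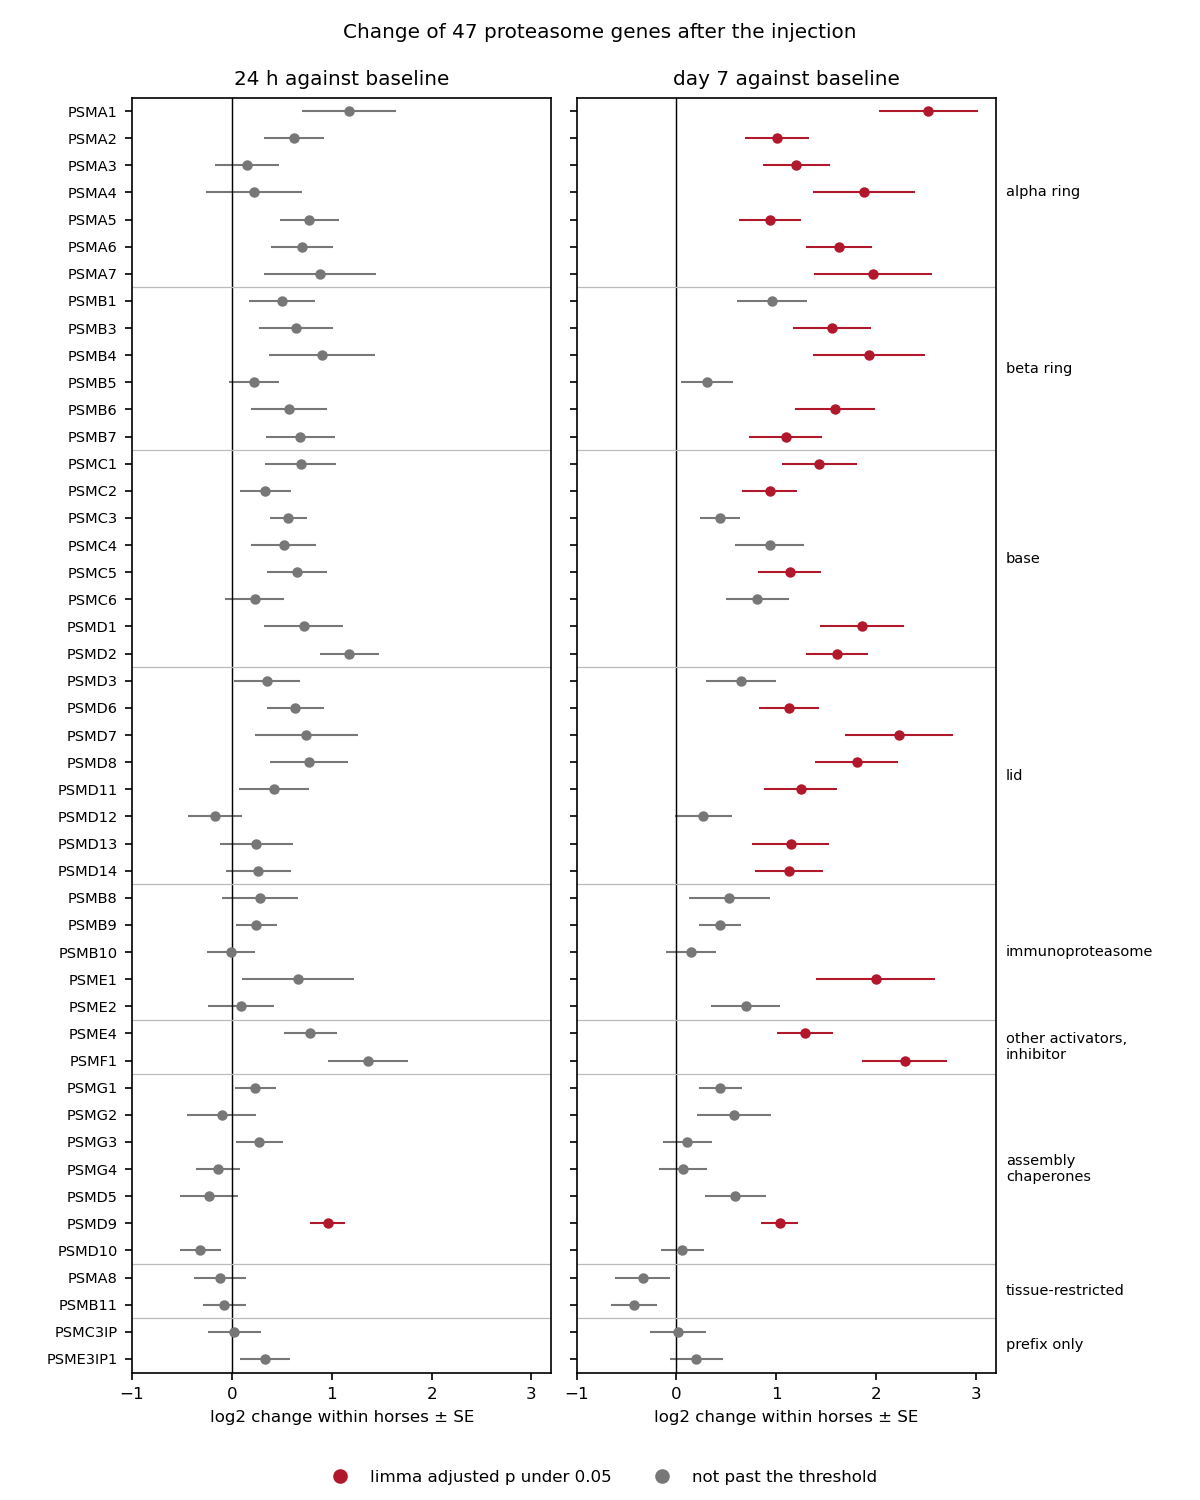
Log2 change of each of the 47 genes at 24 h and on day 7 against baseline, within horses, ordered by role; points are limma estimates, bars their standard errors, and red marks an adjusted p under 0.05. A single gene, PSMD9, is red at 24 h, and 26 genes are red on day 7, most of them in the alpha ring, beta ring, base and lid.

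The median change of the 47 genes on day 7 was 1.00, against -0.24 over all probe sets. Over the 16661 named genes with 1 probe set each it was -0.04, with 18% called higher and 8.43% lower. Bright probe sets rose more often than dim ones in this comparison, and proteasome genes were bright. In the brightest of 4 equal classes of probe sets by mean value 31.5% were called higher, with a median change of 0.51, and 13 of 21 proteasome genes were. In the next class 13.3% of probe sets were called higher and so were 11 of 16 proteasome genes, and in the class below that 2.75% and 2 of 9. The dimmest class held 1 of the 47 genes, PSMA8, which was not called, where 0.0916% were called higher. All day 7 arrays exceeded all baseline arrays for 5 of the 47 genes, PSMA6, PSMC5, PSMD2, PSMD8 and PSMD9. The same held for 3.62% of all probe sets and 5.41% of the named genes with 1 probe set each.

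The count of 26 depended on single horses and on the scale of the arrays. It was 9 without horse 3, 11 without horse 4, 5 without horse 5 and 16 without horse 6, where 3.91%, 6.1%, 2.45% and 7.5% of all probe sets were called higher, so the share over the whole array fell with it. It was 14, 15 and 15 without the baseline array of horse 2, 5 or 6, and 8, 12 and 9 without the day 7 array of horse 3, 4 or 5, with 3.97% to 7.24% of all probe sets called higher in these 6 fits. Quantile normalization, which gives every array the same distribution, left 11 genes called and 5.27% of all probe sets called higher. The SD of each array as a covariate left 0 genes and 0% of all probe sets called, and turned 19 of the 26 changes below 0. Since baseline and day 7 arrays do not overlap in SD, a change with time and one with array spread cannot be told apart by that covariate. PSMA1, PSMA6, PSMD2, PSMF1 and PSMD9 were called under 36 of 37 alternative settings, all but that covariate.

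The alpha ring forms the gate of the core. PSMA1 ranged from 3.51 to 4.58 at baseline, with a median of 3.63, and from 3.36 to 6.45 at 24 h, with a median of 4.97. Its day 7 value was 4.56 in the array of horses 1 and 2 and 6.37, 6.99, 7.43 and 6.54 in horses 3, 4, 5 and 6. Only the shared array lay within the baseline range on day 7, just below the baseline value of horse 4. The day 7 change of PSMA1 was 2.52 (SE 0.50, adjusted p = 0.00758). A dimmer probe set of PSMA1, with a mean of 2.83 over all arrays, went the other way, with a change of -0.93 (SE 0.31, adjusted p = 0.0389), so the direction for this gene differs between its probe sets. That probe set lies in the dimmest class, where 34.5% were called lower on day 7, with a median change of -0.61. PSMA1 was the only one of the 47 with more than 1 probe set of its own.

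PSMA6, another alpha subunit, ranged from 3.48 to 3.95 at baseline, with a median of 3.74, and from 3.62 to 5.34 at 24 h, with a median of 4.53. The day 7 arrays gave 4.36 in the array of horses 1 and 2 and 5.61, 5.59, 6.41 and 5.11 in horses 3 to 6. Each day 7 array was above each baseline array, and 24 h arrays lay in both ranges. Its day 7 change was 1.63 (SE 0.33, adjusted p = 0.00824). The other alpha subunits changed by 1.97 (PSMA7), 1.88 (PSMA4), 1.20 (PSMA3), 1.00 (PSMA2) and 0.94 (PSMA5). All 7 alpha genes were higher in all 5 horse comparisons on day 7, but in the array of horses 1 and 2 their median change was only 0.09, against 1.19 to 2.51 in the other horses.

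The beta ring carries the active sites, and 4 of its 6 measured genes were called. PSMB6, the subunit with caspase-like activity, ranged from 3.90 to 5.98 at baseline, with a median of 5.10, and from 4.46 to 6.21 at 24 h, with a median of 5.91. On day 7 it was 5.92 in the array of horses 1 and 2 and 6.61, 7.07, 7.00 and 6.31 in horses 3 to 6. All day 7 arrays but the shared one were above the whole baseline range, and the change was 1.59 (SE 0.40, adjusted p = 0.0162). The structural subunit PSMB3 had 5.86 in the shared array and 6.86, 6.45, 6.19 and 6.08 in horses 3 to 6 on day 7, against 4.28 to 5.89 at baseline, with a median of 4.42. Its 24 h arrays ran from 4.43 to 6.26, with a median of 5.59. Here too the shared array alone overlapped with baseline on day 7, and the change was 1.56 (SE 0.39, adjusted p = 0.0160).

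PSMB7, with trypsin-like activity, ranged from 3.56 to 5.72 at baseline, with a median of 3.68, and from 3.74 to 5.52 at 24 h, with a median of 4.83. Its day 7 value was 4.32 in the shared array and 4.80, 5.50, 5.73 and 5.42 in horses 3 to 6. Its baseline range was stretched by horse 2, and the day 7 change was 1.09 (SE 0.36, adjusted p = 0.0408). PSMB5, with chymotrypsin-like activity, was not called. It ranged from 3.96 to 4.96 at baseline, with a median of 4.33, and from 3.98 to 5.06 at 24 h, with a median of 4.71. The day 7 arrays gave 4.75 in the shared array and 4.35, 5.14, 4.80 and 4.64 in horses 3 to 6, all inside the baseline range but that of horse 4. The change of PSMB5 was 0.31 (SE 0.26, adjusted p = 0.369), with a 95% interval from -0.25 to 0.87. PSMB4 was called at 1.93, and PSMB1, at 0.95, missed the threshold (adjusted p = 0.0567).

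The base threads substrates into the core. Its scaffold PSMD2, which binds ubiquitin receptors, ranged from 4.52 to 5.83 at baseline, with a median of 5.08, and from 5.14 to 6.97 at 24 h, with a median of 6.62. On day 7 it was 6.38 in the array of horses 1 and 2 and 7.11, 6.87, 6.96 and 6.83 in horses 3 to 6. Each day 7 array was above each baseline array, and 4 of the 24 h arrays were as well. The day 7 change was 1.61 (SE 0.31, adjusted p = 0.00743), and the 24 h change of 1.18 (SE 0.30) missed the threshold (adjusted p = 0.0681).

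PSMD1, the other large scaffold of the base, ranged from 3.82 to 5.23 at baseline, with a median of 4.20, and from 3.81 to 6.12 at 24 h, with a median of 5.01. Its day 7 value was 4.99 in the shared array and 6.27, 6.85, 6.97 and 5.99 in horses 3 to 6. The shared array alone overlapped with baseline, and the change was 1.86 (SE 0.42, adjusted p = 0.0115). Of the ATPases, PSMC1, PSMC5 and PSMC2 were called, with changes of 1.43, 1.13 and 0.93. PSMC4 (0.94), PSMC6 (0.81) and PSMC3 (0.44) were not, with adjusted p of 0.0576, 0.0667 and 0.107.

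The lid holds the deubiquitinase PSMD14 and its partner PSMD7. PSMD7 ranged from 3.50 to 5.55 at baseline, with a median of 3.85, and from 3.75 to 6.17 at 24 h, with a median of 5.08. The day 7 arrays gave 5.16 in the shared array and 6.80, 7.33, 7.45 and 5.87 in horses 3 to 6. Its change of 2.23 (SE 0.54, adjusted p = 0.0146) was the highest in the lid. PSMD8, a structural lid subunit, had 5.63 in the shared array and 7.03, 7.43, 7.27 and 6.57 in horses 3 to 6 on day 7, against 4.34 to 5.36 at baseline, with a median of 4.94. At 24 h it ran from 4.42 to 6.97, with a median of 5.88. Day 7 and baseline arrays of PSMD8 did not overlap, and the change was 1.80 (SE 0.41, adjusted p = 0.0120). PSMD11, PSMD13, PSMD6 and PSMD14 were called with changes between 1.12 and 1.24. PSMD3 (0.65, adjusted p = 0.168) and PSMD12 (0.27, adjusted p = 0.476) were not.

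**Figure D2:**
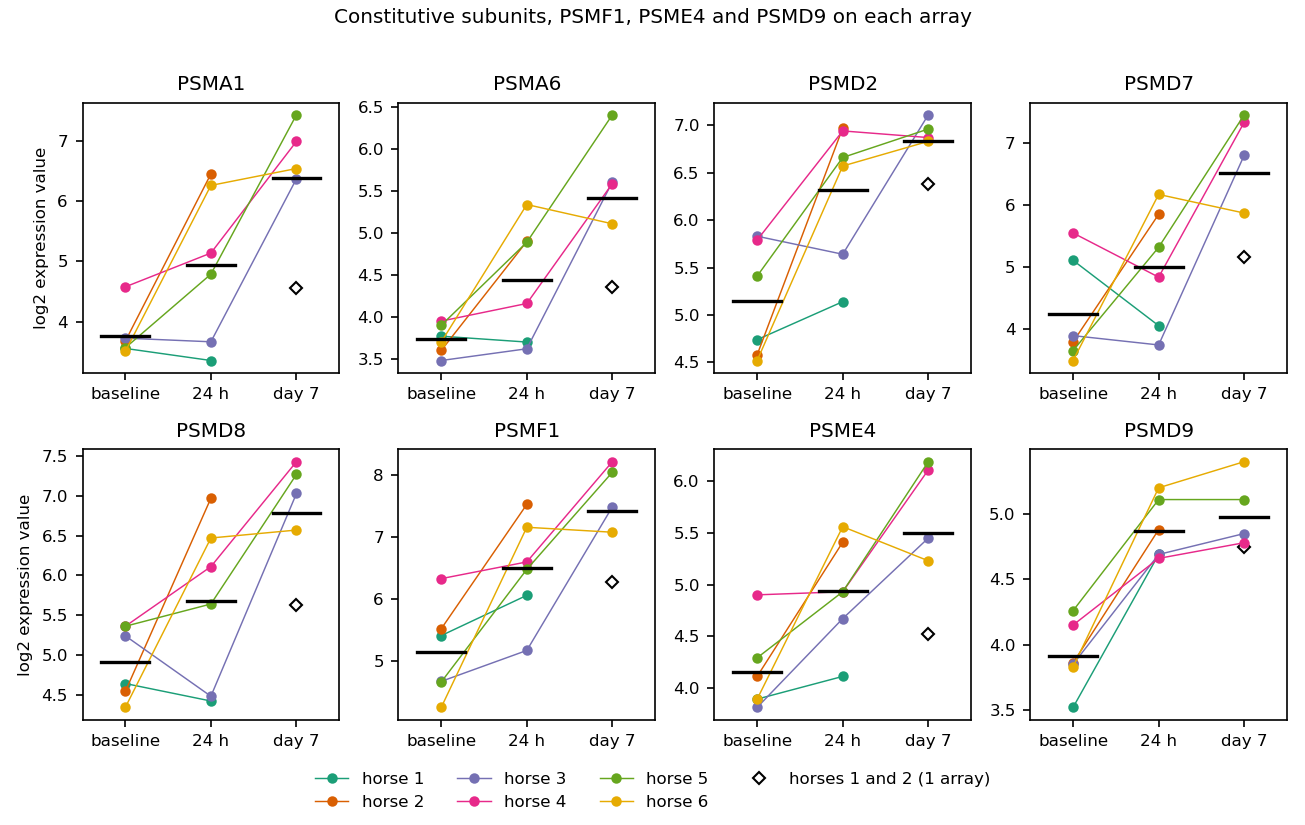
Log2 value on each array at baseline, 24 h and day 7 for 8 proteasome genes; lines join the arrays of a horse, black bars are group means, and the open diamond is the day 7 array that horses 1 and 2 share. The diamond is the lowest day 7 point for each gene, and for PSMD9 the 24 h and day 7 points all lie above the baseline points.

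The regulators that bind the ends of the core were called as well. PSMF1, named as a proteasome inhibitor from experiments with purified proteins, ranged from 4.25 to 6.33 at baseline, with a median of 5.04, and from 5.17 to 7.53 at 24 h, with a median of 6.54. On day 7 it was 6.27 in the shared array and 7.49, 8.22, 8.05 and 7.08 in horses 3 to 6. PSMF1 was above the baseline of the same horse in 6 of 6 horses at 24 h and in 5 of 5 comparisons on day 7. Its change was 2.29 on day 7 (SE 0.42, adjusted p = 0.00649) and 1.36 at 24 h (SE 0.40, adjusted p = 0.0966), the second short of the threshold.

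PSME4, a large activator of the core that does not depend on ubiquitin, ranged from 3.81 to 4.90 at baseline, with a median of 4.00, and from 4.11 to 5.56 at 24 h, with a median of 4.93. Its day 7 value was 4.52 in the shared array and 5.45, 6.11, 6.19 and 5.23 in horses 3 to 6. The shared array alone fell within the baseline range on day 7. The day 7 change was 1.29 (SE 0.28, adjusted p = 0.0107), and the 24 h change of 0.79 was upward in 6 of 6 horses without passing the test (adjusted p = 0.136).

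Of the 5 immunoproteasome genes, PSME1 was called on day 7 and the others were not. The median change of the 5 was 0.53, beside 1.14 for the 29 genes of alpha ring, beta ring, base and lid, 22 of which were called. Of all probe sets 11.9% were called higher, with a median change of -0.24, and of the brightest class 31.5%, with a median of 0.51. All of the 5 but PSMB8 lay in the brightest class, so their median is near that of probe sets as bright. PSME1, the alpha subunit of the activator, ranged from 3.60 to 6.97 at baseline, with a median of 5.43, and from 4.52 to 7.89 at 24 h, with a median of 6.34. The day 7 arrays gave 6.37 in the shared array and 8.30, 7.91, 8.00 and 7.07 in horses 3 to 6. The 4 separate day 7 arrays were above the whole baseline range, and the change was 2.00 (SE 0.59, adjusted p = 0.0281). PSME2, its beta partner, had 6.01 in the shared array and 7.02, 7.07, 7.48 and 6.51 in horses 3 to 6 on day 7, against 5.52 to 6.79 at baseline, with a median of 6.13. At 24 h it ran from 4.87 to 7.10, with a median of 6.47. PSME2 overlapped at all 3 times, and its day 7 change was 0.69 (SE 0.35, adjusted p = 0.137).

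None of the catalytic immunosubunits was called on day 7. PSMB9 had 5.59 in the shared array and 5.85, 5.59, 6.04 and 5.59 in horses 3 to 6 on day 7, against 5.13 to 5.64 at baseline, with a median of 5.21. Its 24 h arrays ran from 5.18 to 6.28, with a median of 5.56. The change was 0.44 (SE 0.21, adjusted p = 0.133). PSMB10 had 6.17 in the shared array and 6.54, 6.06, 6.30 and 5.96 in horses 3 to 6 on day 7, against 5.42 to 6.56 at baseline, with a median of 6.20. At 24 h it ran from 5.48 to 6.69, with a median of 5.99. Every day 7 array of PSMB10 lay inside its baseline range, and the change was 0.14 (SE 0.25, adjusted p = 0.675), with a 95% interval from -0.40 to 0.68. PSMB8 had 4.05 in the shared array and 5.54, 5.17, 5.61 and 4.94 in horses 3 to 6 on day 7, against 3.72 to 5.05 at baseline, with a median of 4.57. Its 24 h arrays ran from 3.47 to 5.56, with a median of 5.01. The change of PSMB8 was 0.53 (SE 0.40, adjusted p = 0.316), and its interval from -0.33 to 1.39 is wide.

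**Figure D3:**
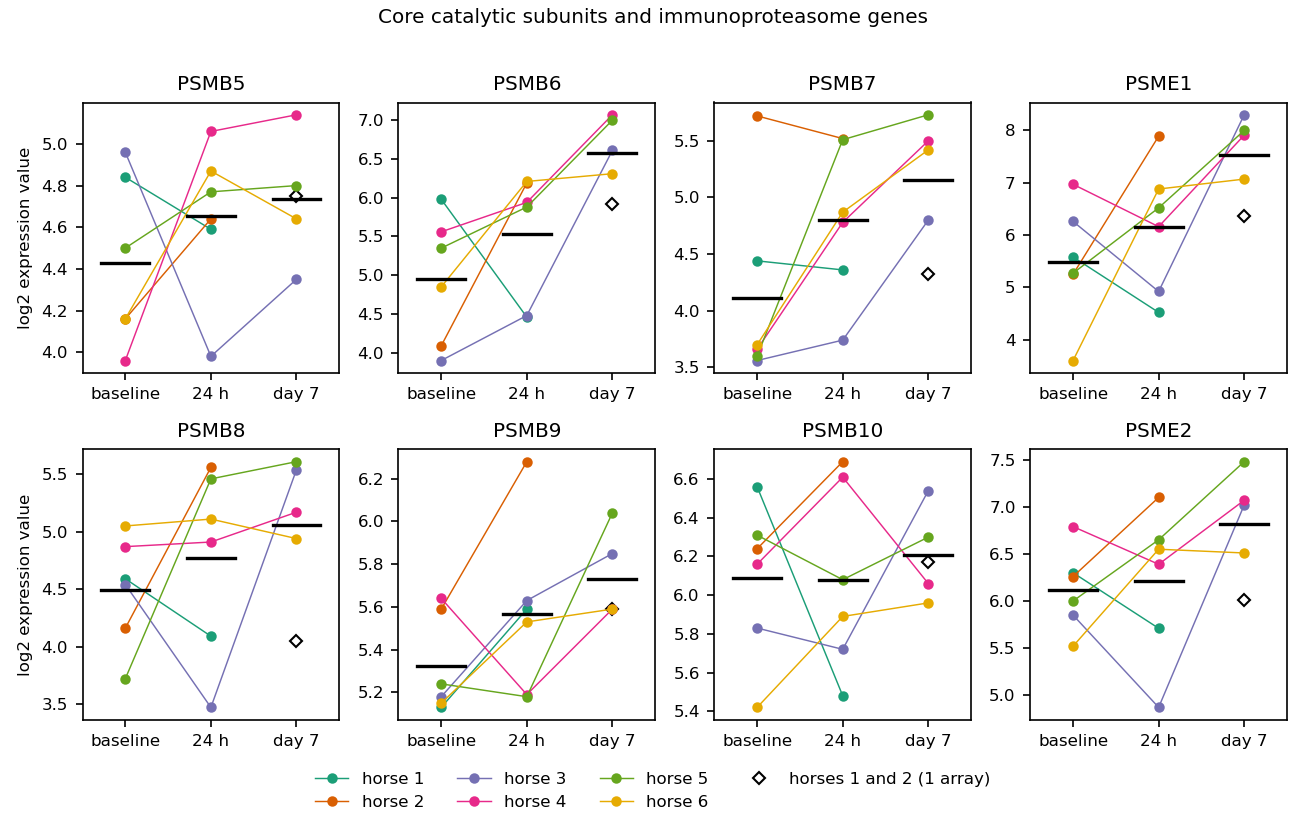
Log2 value on each array for the core catalytic subunits PSMB5, PSMB6 and PSMB7 (upper row), the immunosubunits PSMB8, PSMB9 and PSMB10 below the subunit each replaces, and the activator genes PSME1 and PSME2; lines join a horse, black bars are means, and each panel has its own scale. PSMB6 and PSME1 sit higher on day 7 than at baseline apart from the shared array, while PSMB10 stays within its baseline range.

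Each immunosubunit was set against the core subunit it replaces by the difference of their log2 changes within a horse. There were 9 such differences, from 3 pairs and 3 comparisons, each with an exact two-sided sign-flip permutation test over horses. On day 7 against baseline PSMB9 changed less than PSMB6 in all 5 comparisons, by -1.23 ± 0.57 (SD, n = 5). The exact p was 0.0625, the smallest that 5 values allow, and 0.281 after adjustment over the 9. Fitted as a row of the whole table, an alternative added after the data were seen, the difference was -1.16 (SE 0.39, adjusted p = 0.0419, 95% interval -1.99 to -0.32). PSMB10 minus PSMB7 was -1.05 ± 1.09 (SD, n = 5), below 0 in 4 of 5 (exact p = 0.188, adjusted 0.422). PSMB8 minus PSMB5 was 0.23 ± 1.26 (SD, n = 5, exact p = 0.625, adjusted 0.703), and its fitted interval from -0.65 to 1.09 leaves either sign.

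At 24 h against baseline the differences were -0.33 ± 1.21 for PSMB9 minus PSMB6, -0.69 ± 0.91 for PSMB10 minus PSMB7 and 0.06 ± 0.96 for PSMB8 minus PSMB5 (SD, n = 6, exact permutation p = 0.531, 0.0938 and 0.906). On day 7 against 24 h they were -0.78 ± 0.73, -0.26 ± 0.72 and 0.23 ± 0.94 (SD, n = 5, exact permutation p = 0.0625, 0.500 and 0.563). None of the 9 passed after adjustment in the exact test, and none could have. The smallest p of that test is 0.0625 with 5 values and 0.03125 with 6. Adjustment over the 9 then cannot go under 0.05, so the test cannot decide on these pairs.

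**Figure D4:**
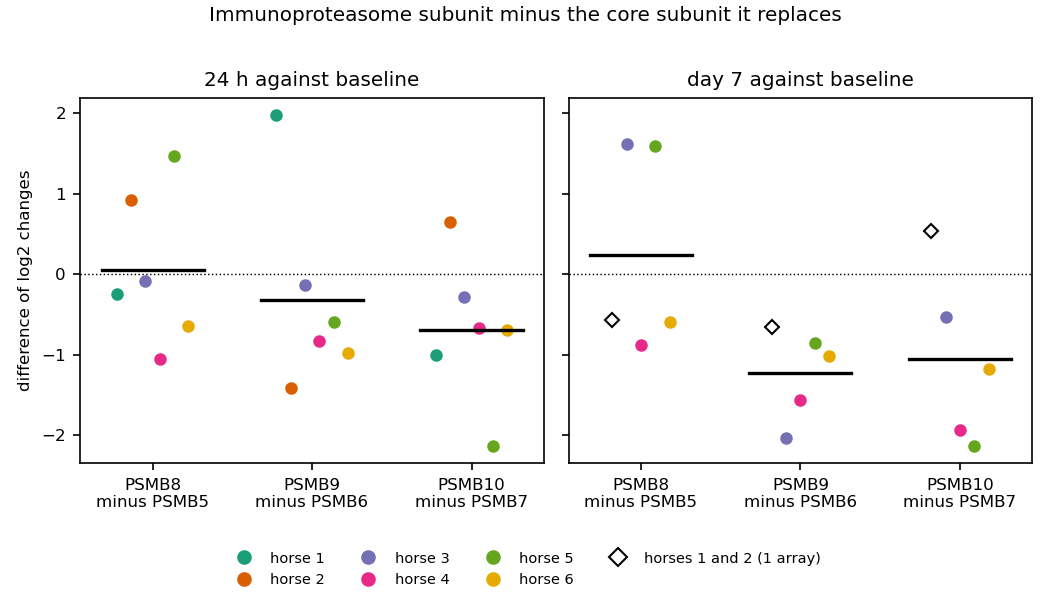
Difference of log2 changes, immunosubunit minus core subunit, for each horse at 24 h and on day 7 against baseline; black bars are means and the open diamond is the array of horses 1 and 2. On day 7 all 5 points of PSMB9 minus PSMB6 lie below 0, and those of PSMB8 minus PSMB5 lie on both sides.

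Assembly chaperones help to build rings and base and do not remain in the finished particle. Of these 7 genes 1, PSMD9, was called higher on day 7, a count near the share of 11.9% over all probe sets. The median change of the 7 was 0.44, against -0.24 over all probe sets. PSMD9, a chaperone of base assembly, was also the single member of the 47 called at 24 h. It ranged from 3.52 to 4.26 at baseline, with a median of 3.86, and from 4.66 to 5.20 at 24 h, with a median of 4.79. On day 7 it was 4.75 in the shared array and 4.85, 4.78, 5.11 and 5.40 in horses 3 to 6. No 24 h or day 7 array overlapped with a baseline array, and the 24 h and day 7 ranges overlapped with each other. The change was 0.96 at 24 h (SE 0.18, adjusted p = 0.0322) and 1.03 on day 7 (SE 0.19, adjusted p = 0.00595). The 24 h call was lost in 18 of 37 alternative settings and the day 7 call in 1, the array SD as a covariate.

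PSMD5, also a chaperone of the base, ranged from 4.19 to 5.01 at baseline, with a median of 4.46, and from 3.84 to 4.71 at 24 h, with a median of 4.24. Its day 7 value was 4.35 in the shared array, 5.22, 5.93 and 5.74 in horses 3 to 5 and 4.30 in horse 6. The horses were split on day 7, and the change of 0.59 was not called (adjusted p = 0.153). PSMG2 changed by 0.58 and PSMG1 by 0.44 (adjusted p = 0.234 and 0.126), and PSMG3, PSMG4 and PSMD10 by 0.11 or less.

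PSMA8, an alpha subunit known from testis, and PSMB11, a beta subunit known from the thymus, were not called. PSMA8 was 2.97 in the shared array and 2.55, 2.05, 2.11 and 2.36 in horses 3 to 6 on day 7, against 2.27 to 3.48 at baseline, with a median of 2.74. Its 24 h arrays ran from 2.18 to 3.25, with a median of 2.53. PSMA8 lay in the dimmest of the 4 classes of probe sets, with a change of -0.34 (adjusted p = 0.346). PSMB11 was 3.93 in the shared array and 3.57, 3.34, 3.47 and 4.22 in horses 3 to 6 on day 7, against 3.73 to 4.40 at baseline, with a median of 4.30, and ran from 3.70 to 4.48 at 24 h, with a median of 4.12. It was lower in 5 of 5 comparisons, by -0.43, without passing the test (adjusted p = 0.161). These were the 2 genes of the 47 with a negative change on day 7.

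The genes that share only the prefix are no subunits. PSME3IP1, a binding partner of an activator, was 5.07 in the shared array and 5.76, 6.34, 6.35 and 5.23 in horses 3 to 6 on day 7, against 5.04 to 6.12 at baseline, with a median of 5.58. At 24 h it ran from 5.51 to 6.43, with a median of 5.84. PSMC3IP, a factor of meiotic recombination, was 4.29 in the shared array and 3.50, 3.21, 3.42 and 3.55 in horses 3 to 6 on day 7, against 3.01 to 4.28 at baseline, with a median of 3.54. Its 24 h arrays ran from 3.15 to 4.03, with a median of 3.68. Both overlapped at all times, with day 7 changes of 0.20 and 0.01 (adjusted p = 0.577 and 0.972).

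At 24 h against baseline 1 of the 47 genes was called higher, PSMD9, and 0 lower, where 0.543% of all probe sets were called higher and 0.471% lower. The median change was 0.43, against -0.06 over all probe sets and 0.01 over the named genes with 1 probe set each. In the brightest class of probe sets it was 0.35, beside 0.64 for the 21 proteasome genes there. In the next class it was 0.045, beside 0.47 for 16 proteasome genes. Of the 47 changes 39 were above 0, and the matching share of all probe sets is not given here. With the array SD as a covariate the median of the 47 genes was -0.30, and 19 of the 47 changes turned sign. The median over the 47 genes differed between horses: it was 1.02 and 1.03 in horses 2 and 6, 0.48 and 0.21 in horses 5 and 4, and -0.22 and -0.08 in horses 1 and 3. In horse 1 all 6 beta ring genes, and in horse 3 all 8 base genes, were lower at 24 h than at baseline. Over the 37 alternative settings the change of PSMD9 was between 0.86 and 1.05, with adjusted p between 0.0152 and 0.203. Leaving out any of horses 2 to 6, the baseline array of horse 2, 3, 5 or 6, the 24 h array of any horse but horse 3, or the day 7 array of horse 4 or 6 lost the call, with adjusted p between 0.0507 and 0.173. Leaving out the baseline array of horse 1 gave 3 called genes, where 2.07% of all probe sets were called higher. Leaving out the 24 h array of horse 3 gave 2, where 0.569% of all probe sets were.

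**Figure D5:**
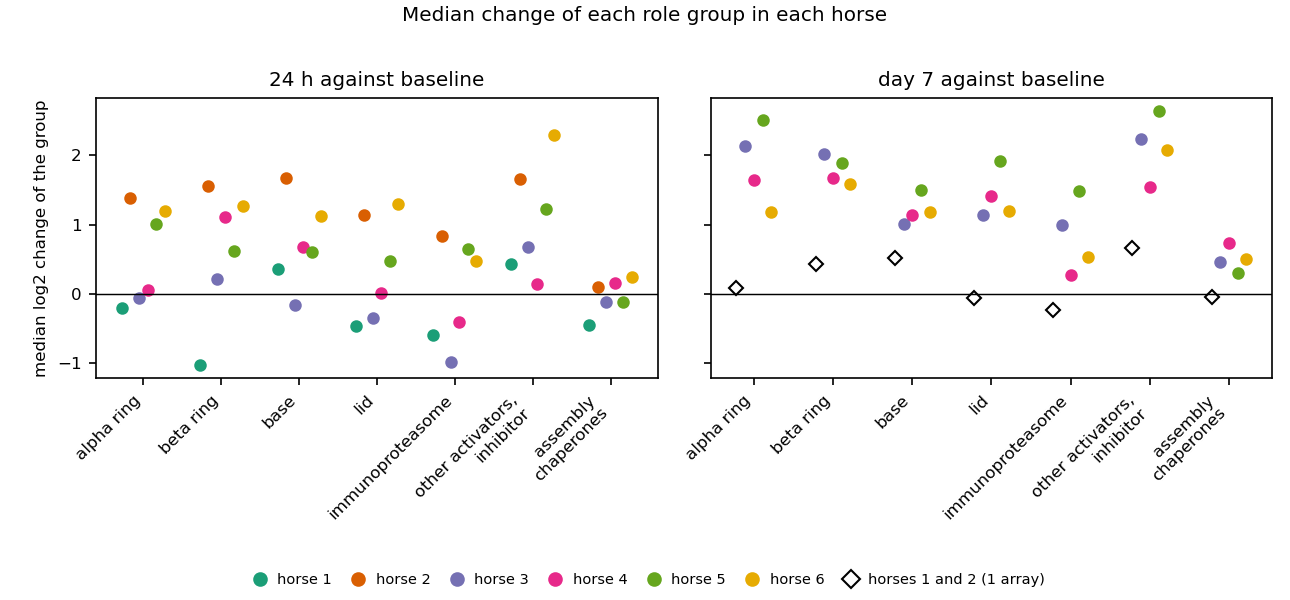
Median log2 change of the genes of 7 role groups in each horse, at 24 h and on day 7 against baseline; the open diamond is the array of horses 1 and 2. At 24 h horses 2 and 6 lie above 0 in all groups and horses 1 and 3 below 0 in 5 of the 7 groups, and on day 7 the 4 separate arrays lie above 0 in all 7 groups with the shared array below them.

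Over the 47 genes the day 7 median was 0.23 in the shared array, and 1.08, 1.10, 1.63 and 0.91 in horses 3, 4, 5 and 6. Horse 3 thus had a median near 0 at 24 h and above 1 on day 7, while horse 6 was much alike at both times.

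On day 7 against 24 h no gene was called in either direction, in the 47 or among all probe sets (0% of each). Without adjustment limma gave a p under 0.05 to 16 of the 47 and to 4032 of 30559 probe sets, and the smallest adjusted p among the 47 was 0.258. The median change was 0.49, against -0.15 over all probe sets. In the separate horses it was 1.38, 0.83, 0.84 and 0.01 in horses 3 to 6, and -0.15 in the shared array. With array weights limma called 21 of the 47 higher in this comparison, where 9.65% of all probe sets were called higher, and no other alternative called any of the 47.

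Any difference among the 3 times was called for 12 of the 47 genes, where 13% of all probe sets were. They were PSMA1, PSMA4, PSMA6, PSMB3, PSMB6, PSMD1, PSMD2, PSMD7, PSMD8, PSME4, PSMF1 and PSMD9, with 0 from the immunoproteasome. The count fell to 0 without horse 5 or 6 and rose to 25 without the baseline array of horse 1. It was 2 without horse 3 or 4, 2, 4, 3 and 1 without the baseline array of horse 2, 3, 5 or 6, and 1, 3 and 2 without the day 7 array of horse 3, 4 or 5. The matching shares of all probe sets with any difference are not given here. The share of all probe sets called higher on day 7 against baseline moved as well. From 11.9% it went to 2.45% without horse 5, 7.5% without horse 6 and 15% without the baseline array of horse 1.

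Other genes of the pathway were measured with the same arrays. Of 23 measured genes, from a list of 29, that assemble, bind or feed the proteasome, 12 were called higher and 0 lower on day 7, with a median change of 0.99. Of all probe sets 11.9% were called higher, with a median change of -0.24, and of the brightest class 31.5%, with a median of 0.51. ECPAS, a scaffold that binds the particle, changed by 1.28 (adjusted p = 0.00522), ZFAND5, an activator of the particle, by 1.66 (adjusted p = 0.00845), VCP, the ATPase that extracts ubiquitinated proteins, by 1.85 (adjusted p = 0.00916) and UBA1, the ubiquitin-activating enzyme, by 1.67 (adjusted p = 0.0101). NFE2L1, the transcription factor known to drive proteasome genes when the particle is inhibited, changed by 0.33 (adjusted p = 0.455). At 24 h ECPAS alone was called, at 0.94 (adjusted p = 0.0499), where 0.543% of all probe sets were called higher.

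Of 13 measured genes, from a list of 14, of MHC class I antigen processing, 7 were called higher and 0 lower on day 7, with a median change of 0.93, and 0 were called at 24 h. The day 7 share called higher was 11.9% over all probe sets and 31.5% in the brightest class, with median changes of -0.24 and 0.51. ERAP1, which trims peptides in the endoplasmic reticulum, changed by 1.99 (adjusted p = 0.0127), and the chaperones PDIA3 and CALR by 2.17 and 1.80 (adjusted p = 0.0161 and 0.0267). The transcription factor IRF2 changed by 1.26 (adjusted p = 0.0186). TAP1, a subunit of the peptide transporter, changed by 0.46 (adjusted p = 0.468), and NLRC5, an inducer of class I genes, by -0.23 (adjusted p = 0.477).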

How the data were processed

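Total RNA of synovial fluid was hybridised to an equine Affymetrix array. The deposited table holds log2 expression values for 30559 probe sets and 18 columns; per the submitters' processing notes, Transcriptome Analysis Console 3.0, Affymetrix Expression Console and RMA were used, in an order and for steps that are not stated. Scan batches are not given in the sources used here. The platform's gene table, whose symbols can be old, gave 1 symbol to 16789 probe sets, several to 343 and none to 13427.

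The day 7 columns of horses 1 and 2 differed at 212 probe sets, 0 of them with 1 symbol, and counted as 1 array assigned in equal parts to both horses, which left 17 arrays. limma 3.58.1 in R 4.3.3 (lmFit, eBayes, two-sided) was fitted on all arrays and probe sets with the horse as a block, since the sample titles repeat the 6 horse names at every time. It had 9 residual and 4.71 prior degrees of freedom, and p was adjusted by Benjamini-Hochberg over the whole table, with a threshold of 0.05. The fit was tested on simulated data. Changes in the text are fitted within horses and can differ from differences of group means. The members and lists were chosen with earlier results of these data known, and lists are described by counts and medians without a test.

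Array by array values are given for the 5 immunoproteasome genes, for PSMB5, PSMB6 and PSMB7, and for the 2 genes of each role group with the smallest p for any difference among the 3 times. Members past the threshold are named, and from each other list up to 4 called genes by smallest p (2 in a list without calls). NFE2L1, TAP1 and NLRC5 were named in addition, after their values were seen. Alternatives were the block, normalization, filters on dim probe sets, the variance model, array weights, the array SD as a covariate, the treatment of the shared array, and each horse or array left out. A description of promoter motifs was planned, and no promoter sequences were used here. Python 3.11.15 with matplotlib 3.10.9 made the figures.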

Additional observations from a re-analysis of the deposited data

Results flagged for a closer look

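In 6 of 141 groups (47 genes at 3 times) 1 array stood far from the others by Dixon's 95% criterion, which chance alone meets in about 1 of 20 groups. PSMA1 was 4.58 in horse 4 at baseline, above the next value of 3.73. On day 7 the array shared by horses 1 and 2 was low for PSMA7, at 5.80 with the nearest value at 7.15, and for PSMD13, at 4.11 with the nearest at 5.51. PSMC3 was 4.92 in horse 5 on day 7, below the nearest value of 5.22, and PSMD10 was 4.38 in horse 4 on day 7, above the nearest of 3.92. PSMG1 was 3.89 in horse 1 at 24 h, above the nearest value of 3.43.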

How the results depend on the processing

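Without the horse as a block, the pairing that the labels give, 28 of the 47 genes were called on day 7 against baseline, 1 at 24 h and 0 on day 7 against 24 h, and any difference among the times was called for 21, against 12 with the block. With the horse as a random block that count was 25. It was 4 under quantile normalization, 0 with the array SD as a covariate, 31 with array weights, 22 and 6 with the shared array given to horse 1 or to horse 2, and 23 with that array left out. The shares of all probe sets with any difference in these fits are not given here, so whether the 47 genes moved with the whole array in that test is not shown. Leaving out single horses or arrays moved the any-difference count between 0 and 25, the day 7 count between 5 and 31 (31 without the shared array, up to 29 without any other, and 5 to 16 where it moved by over 1.5 times) and the 24 h count between 0 and 3. The 24 h count was also 0 with only the arrays of the 2 times compared, and 0 with the array SD as a covariate. The day 7 count was 11 under quantile normalization and 0 with the array SD as a covariate. Array weights called 21 genes on day 7 against 24 h, as they called 15.8% of all probe sets. The share of all probe sets called higher on day 7 against baseline moved as well. It was 12.7% without the block, 13.7% with the random block, 5.27% under quantile normalization, 0% with the array SD as a covariate and 17.8% with array weights. With the shared array given to horse 1, given to horse 2 or left out it was 14.5%, 9.32% and 14.6%. The difference PSMB9 minus PSMB6 on day 7, -1.23 by the exact test, was -1.16 in the fit of the whole table, where it passed (adjusted p = 0.0419). The median change of the 47 genes stayed between 0.77 and 1.22 on day 7 and between 0.25 and 0.63 at 24 h, except with the array SD as a covariate, where it was -0.22 and -0.30. Under all 37 settings 0 genes were called lower on day 7, and the median of the 29 constitutive genes exceeded that of the 5 immunoproteasome genes.

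The array SD as a covariate turned 28 changes on day 7, 19 at 24 h and 9 between day 7 and 24 h. Those on day 7 were PSMA1 -0.29, PSMA2 -0.46, PSMA3 -0.34, PSMA4 -0.51, PSMA5 -0.21, PSMA7 -1.04, PSMB1 -0.58, PSMB3 -0.062, PSMB4 -1.02, PSMB5 -0.086, PSMB6 -0.24, PSMB8 -0.80, PSMB9 -0.023, PSMC1 -0.25, PSMC4 -0.015, PSMC5 -0.18, PSMD1 -0.25, PSMD3 -1.15, PSMD7 -0.73, PSMD8 -0.29, PSMD11 -0.41, PSMD13 -0.95, PSMD14 -0.22, PSME1 -1.16, PSME2 -0.95, PSME4 -0.0099, PSMG2 -0.59 and PSMA8 0.25. Of the 19 at 24 h, 10 were in genes shown array by array, where the covariate turned PSMA1 to -0.46, PSMA6 to -0.22, PSMB3 to -0.30, PSMB6 to -0.49, PSMB9 to -0.021, PSMD1 to -0.51, PSMD7 to -0.97, PSMD8 to -0.44, PSME1 to -1.17 and PSME3IP1 to -0.16. Quantile normalization turned PSMA8 on day 7, to 0.10. The cause of these shifts was not tested. The fit rests on 17 arrays, 1 of them shared by 2 horses, and without detection calls dim probe sets such as PSMA8 cannot be separated from background.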
